A study of Homo sapiens with 20 samples.

Results

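The CDK inhibitor genes CDKN1A, CDKN1B, CDKN1C, CDKN2A and CDKN2B were described through the H3K27ac peaks in 4 windows of hg19: chromosome 6 from 36.58 to 36.7 Mb for CDKN1A, chromosome 12 from 12.83 to 12.9 Mb for CDKN1B, chromosome 11 from 2.86 to 2.95 Mb for CDKN1C, and chromosome 9 from 21.9 to 22.15 Mb for CDKN2A and CDKN2B together. The windows were set by position, though chosen with earlier results of these data known, and every peak overlapping one was taken. Peaks of the 4 libraries that overlapped by at least 1 bp were merged, which gave 86 regions in the windows out of 167933 in all. H3K27ac, an acetylation of histone H3, is carried by nucleosomes at active promoters and enhancers.

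The cells were G401, a human rhabdoid tumour line labelled SMARCB1(-/-), and all groups come from this line. SMARCB1 is a core part of SWI/SNF, the complexes that move and evict nucleosomes. Induction with doxycycline switched on GFP in the control group and SMARCB1 in the other, with 2 libraries in each, and chromatin was cut with micrococcal nuclease before immunoprecipitation. The comparison asks how H3K27ac at these genes differs once the missing subunit is expressed. H3K4me3, H3K4me1, SMARCA4 and input samples of the same groups were not analysed here, and neither RNA nor the level of SMARCB1 was measured in the data used. The labels do not say whether the libraries of a group came from separate cultures, so their spread may be technical.

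CDK inhibitors bind cyclin-dependent kinases or their cyclin complexes and hold a cell in G1, which keeps the RB protein able to restrain E2F factors. The Cip/Kip members CDKN1A (p21), CDKN1B (p27) and CDKN1C (p57) act on cyclin-CDK complexes, and the INK4 members CDKN2A (p16) and CDKN2B (p15) act on CDK4 and CDK6. CDKN2A also encodes ARF, from another first exon, which stabilises p53, the activator of CDKN1A. CDKN1C is an imprinted gene, expressed mainly from the maternal copy. Silencing of p16 is a known feature of rhabdoid tumour cells that lack SMARCB1.

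The sequences just upstream of the start sites of CDKN1A, CDKN1B and CDKN2A are shown because the first pair lay in windows with wide acetylation and the third in a window with almost none. They are from RefSeq on GRCh38.p14, whose coordinates are not those of the hg19 peaks, and each covers 250 bases 5′ of a start, printed 5′ to 3′ on the strand of the gene. Capitals mark the GC box (GGGCGG, read on both strands) and the CCAAT box (CCAAT, both strands), and neighbouring GC boxes may share bases. CDKN1A is at chr6:36678464-36678713 on the plus strand, CDKN1B at chr12:12717118-12717367 on the plus strand, and the CDKN2A entries at chr9:21995325-21995574 and chr9:21974858-21975107 on the minus strand.
CDKN1A: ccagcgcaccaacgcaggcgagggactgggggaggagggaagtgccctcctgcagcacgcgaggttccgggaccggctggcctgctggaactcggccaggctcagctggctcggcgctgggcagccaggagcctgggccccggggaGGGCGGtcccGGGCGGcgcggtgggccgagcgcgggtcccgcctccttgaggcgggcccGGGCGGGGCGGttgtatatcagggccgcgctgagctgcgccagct
CDKN1B: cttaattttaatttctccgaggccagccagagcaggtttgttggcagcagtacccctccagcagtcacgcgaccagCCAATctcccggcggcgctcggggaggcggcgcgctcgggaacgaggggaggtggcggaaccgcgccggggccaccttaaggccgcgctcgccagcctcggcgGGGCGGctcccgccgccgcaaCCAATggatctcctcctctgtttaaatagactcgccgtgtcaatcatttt
CDKN2A, upstream entry: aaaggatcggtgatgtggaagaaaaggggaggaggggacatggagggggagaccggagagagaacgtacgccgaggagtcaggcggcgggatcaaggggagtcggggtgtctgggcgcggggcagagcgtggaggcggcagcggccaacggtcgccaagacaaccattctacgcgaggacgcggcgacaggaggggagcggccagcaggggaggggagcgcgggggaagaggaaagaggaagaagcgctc
CDKN2A, downstream entry: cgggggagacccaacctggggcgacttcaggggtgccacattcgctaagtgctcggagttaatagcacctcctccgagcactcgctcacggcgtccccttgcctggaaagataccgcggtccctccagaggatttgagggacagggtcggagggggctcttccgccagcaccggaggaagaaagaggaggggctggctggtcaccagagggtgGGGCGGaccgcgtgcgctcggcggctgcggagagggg

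The CDKN1A sequence held 4 GC boxes and the CDKN1B sequence 1, against 0 in the upstream and 1 in the downstream CDKN2A entry. CDKN2B, at chr9:22009306-22009555 on the minus strand and not printed, held 2. Of 35116 promoters of the same length, 42.6% held at least 1 GC box. CDKN1B alone among these held a CCAAT box, with 2, a motif present in 32.01% of promoters. The E-box CACGTG, read on both strands and found in 6.34% of promoters, was in none of these. All were rich in CpG, with 27 in CDKN1A, 27 in CDKN1B, 24 and 20 in CDKN2A and 18 in CDKN2B, against a median of 11. The promoter of CDKN1C is named only.

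The lists held 98251 and 79555 peaks with GFP and 145533 and 135472 with SMARCB1, replicate 1 first, and so were longer with SMARCB1. The background expected at a summit, which rises with sequencing depth, was 1.82 and 3.74 fragments with GFP and 4.09 and 3.89 with SMARCB1. For SMARCB1 replicate 1 the background is given after a scale of 0.855, and its fragment counts at summits before it. In the 4 windows together the order was the opposite, with 72 and 62 peaks in the GFP libraries and 49 and 45 in the SMARCB1 libraries. That order rests on the CDKN1A window, with 42 and 38 peaks against 8 and 11. In the CDKN1C window the numbers were 11 and 7 with GFP against 26 and 18 with SMARCB1. A region counted as gained had peaks in the SMARCB1 libraries, both of them, and in no GFP library, and a lost region was the reverse. Of the 86 regions, 19 were lost (22.1%) and 6 gained (6.98%), while 3.94% of all merged regions were lost and 17.5% gained. The lost regions were 17 in the CDKN1A and 2 in the CDKN1B window, and the gained ones 5 in CDKN1C and 1 in CDKN1B. The pooled shares therefore do not describe the genes as a set. A peak in every library was found in 11 of the 86 (12.8%), against 16.7% of all merged regions. The smallest p that the exact permutation test over libraries allows with 2 per group is 0.333, two-sided, so no difference here could reach significance, and whether the groups overlap is stated instead.

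**Figure D1:**
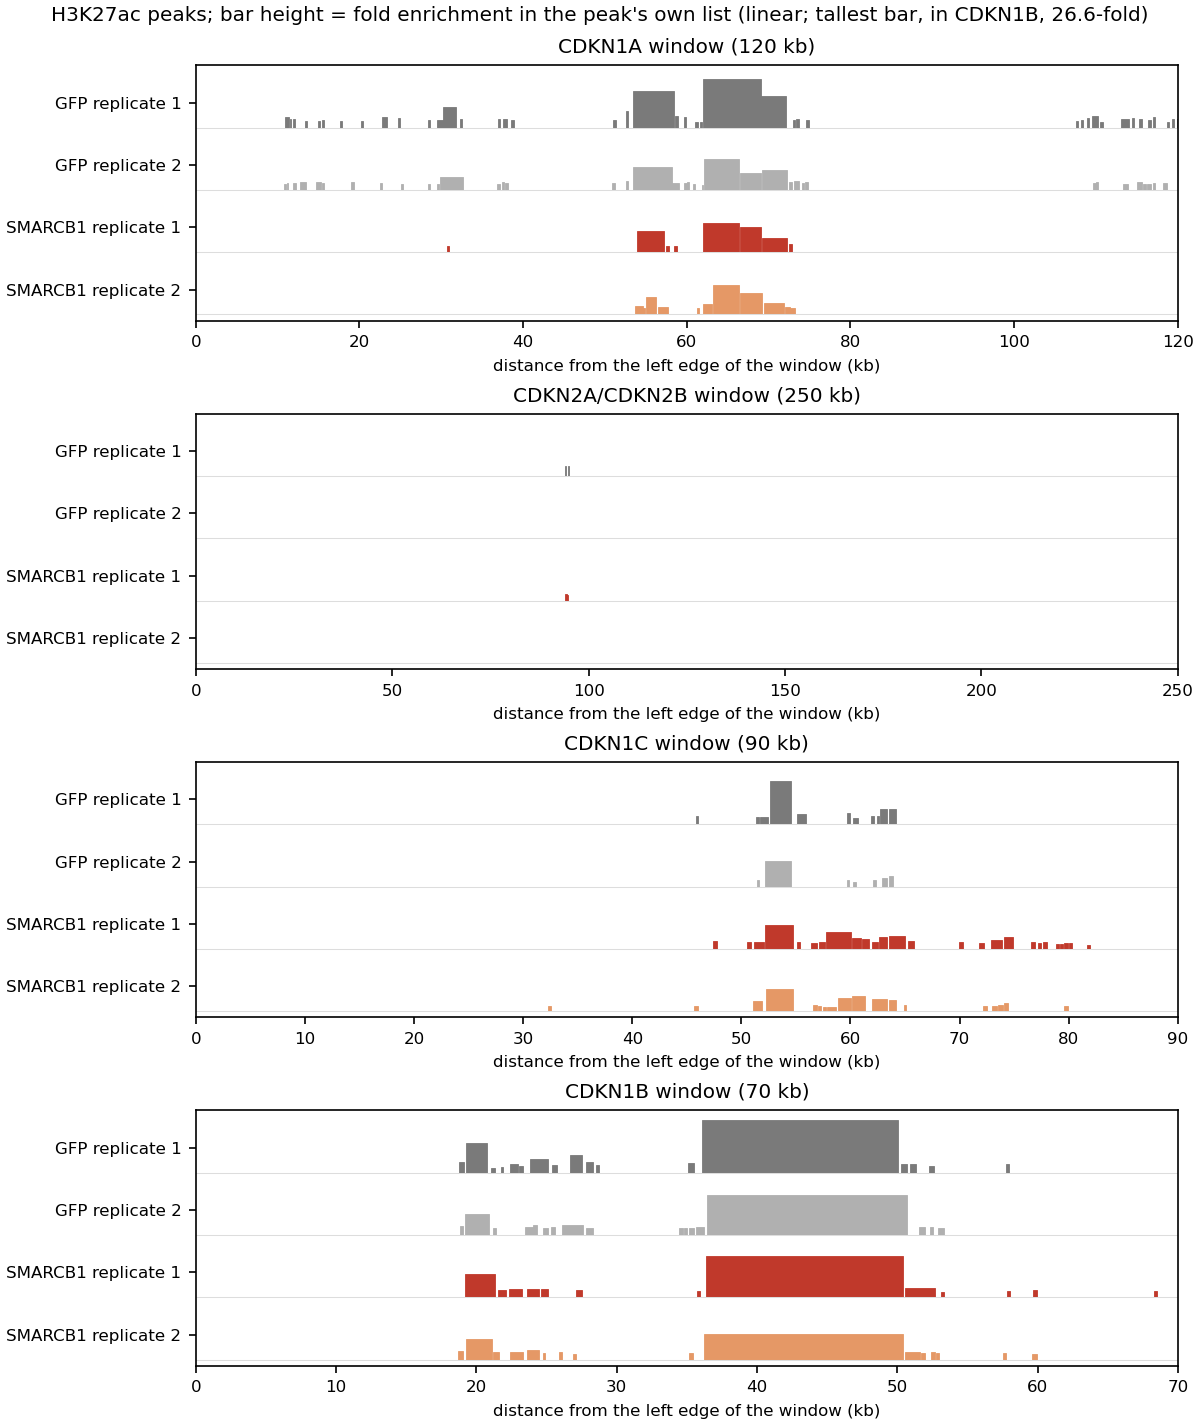
Position of every H3K27ac peak in the 4 windows, with the distance from the left edge of each window in kb on the horizontal axis, 1 track per library, and bar height giving the deposited fold enrichment on a linear scale that is to be read within a track. In the CDKN1A window the scattered peaks on both sides of the central block are in the GFP tracks, with 1 small exception in SMARCB1 replicate 1, while in the CDKN1B window a block of about the same width stands in all 4 tracks.

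CDKN1A, a p53 target that stops the cycle after DNA damage and in differentiation, was the gene whose window had less acetylated length with SMARCB1. Peaks covered 29248 and 29784 bp of the 120 kb window in the GFP libraries and 14755 and 14188 bp in the SMARCB1 libraries. Both SMARCB1 values lay under both GFP values, by at least 14493 bp. The means were 29516 ± 379 bp and 14471.5 ± 400.9 bp (SD, n = 2), a ratio of 0.490 and a difference of -15044.5 bp (exact two-sided permutation test, p = 0.333). The number of peaks was 42 and 38 with GFP and 8 and 11 with SMARCB1.

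The opposite direction was the more common one in the genome. When it was divided into 120 kb tiles, 51.3% of the 9995 tiles with a peak were covered over more length in both SMARCB1 libraries, and 19.0% over less. Those with less in both SMARCB1 libraries and a SMARCB1 mean of at most 0.5 times the GFP mean made up 6.43%, and the CDKN1A window met both conditions. The median tile difference was 753.5 bp in favour of SMARCB1. With the strongest 79555 peaks taken from each library, so that all lists were equally long, the CDKN1A difference was -14419 bp. Under that setting 9.28% of tiles were lower in both SMARCB1 libraries with a mean of at most 0.5 times that of GFP, a condition the CDKN1A window still met.

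**Figure D2:**
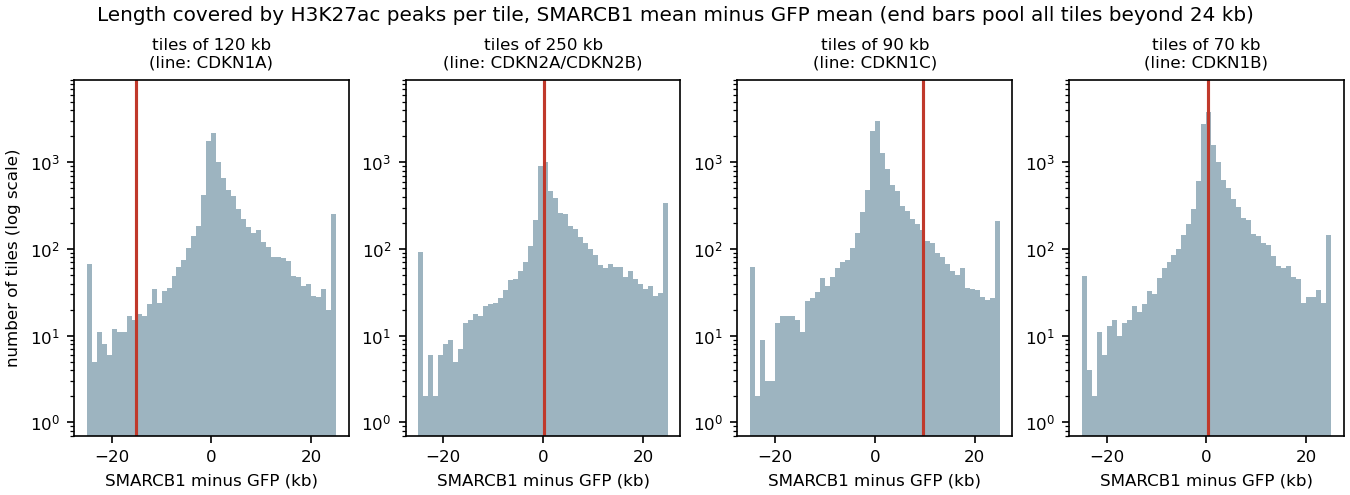
Difference in length covered by H3K27ac peaks, SMARCB1 mean minus GFP mean in kb (horizontal axis), over tiles of the genome of the same length as each window, with the number of tiles on a log scale (vertical axis) and each window as a line; the end bars pool all tiles beyond 24 kb. The CDKN1A line stands at -15044.5 bp on the thin left side, the CDKN1C line at 9680 bp on the right side, and the other 2 lines near 0.

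Within the CDKN1A window the covered length was also read by stretch. The shared span, chr6:36633415-36653738, runs from the start of the first to the end of the last region that had a peak in every library, and it was drawn with the values in view. Since that choice places regions missing from some library outside the span, the stretches are a description and were not tested against each other. Inside the span peaks covered 17005 and 17473 bp with GFP against 14539 and 14188 bp with SMARCB1, means of 17239 ± 331 bp and 14363.5 ± 248 bp (SD, n = 2) and a ratio of 0.833. To its left the covered length was 7343 and 8150 bp with GFP, 216 bp in SMARCB1 replicate 1 and 0 bp in SMARCB1 replicate 2. To its right it was 4900 and 4161 bp with GFP against 0 bp in both SMARCB1 libraries.

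**Figure D3:**
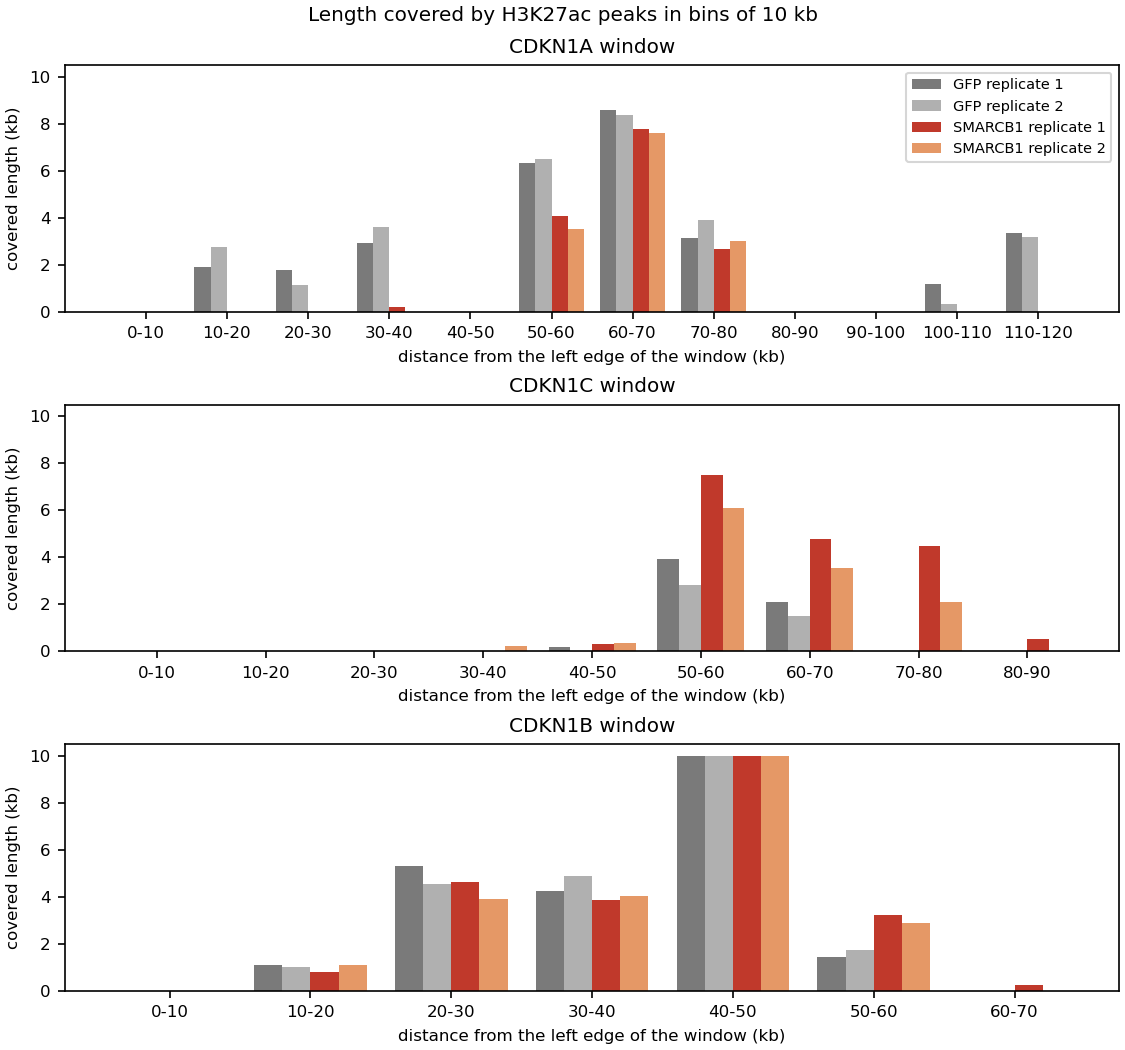
Length covered by H3K27ac peaks in kb (vertical axis) in consecutive bins of 10 kb from the left edge of the CDKN1A, CDKN1C and CDKN1B windows (horizontal axis), 1 bar per library. In CDKN1A the bins from 10 to 30 kb and from 100 to 120 kb hold bars for GFP alone, while in CDKN1C the bin from 70 to 80 kb holds bars for SMARCB1 alone, 4482 and 2095 bp.

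The block that kept acetylation in both groups holds a start site. The authors' tables of stitched regions leave out peaks lying wholly near a transcription start site, without naming the gene, and such peaks were taken as a mark of promoters. The mark was read from peaks outside every stitched region, the widest of which were between 4797 and 4938 bp by library, so a wider peak may also hold a start site. A stitched region can also span peaks that it did not join, and the tables do not say which these are. In these windows that was so for 2 of 14 peaks in 1 region of GFP replicate 1 at CDKN1B and for 6 of 25 in 1 region of SMARCB1 replicate 1 at CDKN1C. In the region chr6:36641662-36653738, peaks left out in this way included chr6:36642089-36646397 in GFP replicate 2, chr6:36642037-36646403 in SMARCB1 replicate 1 and chr6:36643218-36646347 in SMARCB1 replicate 2. GFP replicate 1 had a single wider peak there, chr6:36641983-36649034, which was kept in its table. On GRCh38.p14 the RefSeq genes around CDKN1A stand in the order PANDAR, LAP3P2, CDKN1A, DINOL, so the gene behind the start site is not settled by these tables.

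Coverage of the region at chr6:36641662-36653738 was 10977 and 11178 bp with GFP against 10456 and 10439 bp with SMARCB1. The GFP values were the higher, but how many regions of the genome separate the groups in this way was not computed. The strongest peak of this region ranked by p within the top 0.957% and 2.01% of its list with GFP and the top 1.81% and 0.799% with SMARCB1, so the ranks of the groups overlapped. Its deposited fold enrichment was 24.6 and 15.8 with GFP and 14.6 and 15.1 with SMARCB1. A fold enrichment here is the authors' own value for a peak over the background of its list, and was compared only within a list. The fragments at the summit, recovered from fold and p, were 87 and 74 with GFP and 86 and 73 with SMARCB1. These summits lay at different positions: 36646945 in GFP replicate 1, 36644346 in GFP replicate 2 and SMARCB1 replicate 1, and 36644950 in SMARCB1 replicate 2. The counts are therefore not compared between libraries.

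The other region with a peak in every library, chr6:36633415-36639037, held no peak left out as near a start site and is distal by those tables. It was covered over 5395 and 5518 bp with GFP and over 4083 and 3539 bp with SMARCB1. It was a nearly unbroken block with GFP, 2 peaks in each library, and was split into 3 and 4 peaks with SMARCB1. The highest fold in it was 18.8 and 11.8 with GFP and 10.9 and 8.80 with SMARCB1, in each case below the strongest peak of the region that holds the start site.

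Another region, chr6:36609435-36612660, was the strongest outside the shared span. Its peaks covered 2459 and 3056 bp with GFP, 216 bp in SMARCB1 replicate 1 and 0 bp in SMARCB1 replicate 2, with a highest fold of 10.3, 6.76 and 3.39 in the libraries that had it. Because 1 SMARCB1 library kept a 216 bp peak, it does not count as lost.

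Of the 43 merged regions in the CDKN1A window, 17 were lost (39.5%) and 0 were gained, against 3.94% and 17.5% of all merged regions. A further 22 were found in a single GFP library, so that 39 in all were seen with GFP only and none with SMARCB1 only. The shares of all merged regions with these patterns were not computed, so these counts are not read as particular to the window. Peaks in the lost regions were weak. Their fold ran from 3.25 to 8.50 with a median of 4.22 in GFP replicate 1, and from 2.95 to 4.38 with a median of 3.38 in GFP replicate 2. Over all lost regions of the genome the medians were 4.60 and 3.73. These peaks rested on 9 to 23 fragments at the summit in GFP replicate 1 and 14 to 22 in GFP replicate 2. By p the median such peak was at the top 59.8% and 73.7% of its list. With lists of equal length 16 of 36 regions were lost, 15 of them among the 17, against 8.12% of all merged regions. That setting left the GFP replicate 2 list whole. It cut GFP replicate 1 at a -log10 p of 5.44 and the SMARCB1 lists at 6.46 and 6.65. A lost region could thus drop out only through its GFP replicate 1 peak, so a kept call says little. Of the CDKN1A regions, 4 were lost at the strict threshold (-log10 q of at least 5) and 9 with peaks within 1 kb joined. The shares of all merged regions lost under these settings were not computed, so neither count can be called high or low.

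Those 15 regions, all without a peak in either SMARCB1 library, lay on both sides of the shared span and in its one gap. Near the left edge stood chr6:36590804-36591335, covered over 474 and 442 bp in GFP replicates 1 and 2, and chr6:36591876-36592286, covered over 200 and 411 bp. Both consisted of peaks left out as near a start site, so a promoter mark of the GFP libraries was among the losses. The 13 others held no such peak.
Further along, chr6:36595437-36595660 was covered over 224 and 200 bp and chr6:36608404-36608661 over 200 and 240 bp. Beside the strong distal region, chr6:36616863-36617177 was covered over 200 and 286 bp and chr6:36617439-36618174 over 468 and 651 bp. Just before the shared span came chr6:36630813-36631382 with 393 and 451 bp and chr6:36632551-36632868 with 318 and 219 bp. The last of these had the highest fold of the lost regions, 8.50 and 4.38. In the gap between the constant regions, chr6:36639619-36639966 was covered over 252 and 324 bp.
Right of the span, chr6:36654454-36654925 was covered over 365 and 377 bp. Then, after a stretch without peaks and 3 regions of GFP replicate 1 alone, chr6:36689526-36690300 was covered over 775 and 575 bp, chr6:36693116-36693979 over 864 and 572 bp and chr6:36695021-36695647 over 335 and 627 bp. At the right edge chr6:36696201-36696721 was covered over 314 and 521 bp and chr6:36696921-36697260 over 325 and 336 bp. This right-hand group ran on past the window: it belonged to a stitched region of 19661 bp and 20 peaks in GFP replicate 1, which the authors marked as a super-enhancer, and to one of 18556 bp and 13 peaks in GFP replicate 2, which they did not. The SMARCB1 tables held no stitched region in the part of that stretch inside the window. Of all stitched regions 3.37% and 3.35% were marked in the GFP tables and 5.55% and 5.02% in the SMARCB1 tables. Stitched regions that share an ID share a signal, and the mark rests on that signal. A mark is therefore not read as a property of the single region.

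Base-pair overlap of the peak sets in the CDKN1A window, as the Jaccard index (shared over total covered length), was 0.645 between the GFP libraries and 0.802 between the SMARCB1 libraries. Between a GFP and a SMARCB1 library it was between 0.435 and 0.487. The index cannot exceed the ratio of the shorter to the longer covered length. The lower values between groups thus follow in part from the difference in length given above, and are not a separate result.

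CDKN1B, which restrains cyclin E and CDK2 in resting cells, lay in a window with about the same acetylated length in both groups. Peaks covered 22119 and 22201 bp of its 70 kb with GFP and 22787 and 21977 bp with SMARCB1. The groups overlapped, with means of 22160 ± 58.0 bp and 22382 ± 573 bp (SD, n = 2) and a difference of 222 bp (exact two-sided permutation test, p = 1). Of 70 kb tiles with a peak, 49.2% were higher in both SMARCB1 libraries and 19.2% lower in both, so an overlap such as that at CDKN1B is found in the remainder. The bin from 50 to 60 kb was named after its values were seen. It was covered over 1436 and 1719 bp with GFP against 3230 and 2903 bp with SMARCB1. In the bin from 30 to 40 kb the order was the reverse, 4267 and 4879 bp against 3870 and 4029 bp. The share of 10 kb tiles that separate the groups was not computed, so neither bin is read as particular to this window. Right of the last region with a peak in every library, peaks covered 204 and 414 bp with GFP against 924 and 838 bp with SMARCB1. The stitched region over the window was 36241 and 29826 bp long in the GFP tables and unmarked. In the SMARCB1 tables it was 50397 and 38763 bp long, and both were marked as super-enhancers. The mark was also more common there, on 5.55% and 5.02% of all stitched regions against 3.37% and 3.35% with GFP. It rests on a signal that regions with the same ID share, so it is not read as a change at CDKN1B.

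A single peak made up most of the acetylated length of the CDKN1B window in every library. It was 13965 and 14213 bp wide with GFP against 14064 and 14196 bp wide with SMARCB1, against a RefSeq gene length of 5002 bp. Its starts in the 4 libraries fell within 349 bp of each other and its ends within 597 bp. The mean widths were 14089 ± 175 bp and 14130 ± 93.3 bp (SD, n = 2), a difference of 41 bp (exact two-sided permutation test, p = 1).
By width the peak ranked 304 and 348 in the GFP lists and 250 and 130 in the SMARCB1 lists. By p it ranked 251 and 140 with GFP and 28 and 369 with SMARCB1, among the strongest peaks of every list. Its fold was 26.6 and 20.5 with GFP and 21.3 and 13.2 with SMARCB1, on 103, 96, 138 and 100 fragments at the summit. In GFP replicate 1 it spanned chr12:12866102-12880066 and in SMARCB1 replicate 1 chr12:12866372-12880435. The merged region around it, chr12:12865635-12882674, was covered over 15131 and 15439 bp with GFP against 16425 and 15823 bp with SMARCB1.

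The peak was wider than any peak outside the stitched regions, so the tables do not tell whether it holds a start site. Peaks outside the stitched regions stood to its left, in chr12:12849205-12852133, where a peak was found in every library. That start-site region, not assigned to CDKN1B or another gene, was covered over 2078 and 1956 bp with GFP against 2751 and 2271 bp with SMARCB1. Its highest fold was 15.2, 10.6, 11.9 and 10.6 in the same order. On GRCh38.p14 the order of genes is GPR19, CDKN1B, LOC105369663, APOLD1, and which of them has that start site is not given. A smaller start-site region beside it, chr12:12848664-12849097, had peaks of 335 and 243 bp with GFP, none in SMARCB1 replicate 1 and 367 bp in SMARCB1 replicate 2.

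The lost and gained regions of the CDKN1B window were short. Of its 17 merged regions 2 were lost (11.8%) and 1 was gained (5.88%), against 3.94% and 17.5% of all merged regions, and 4 had a peak in every library, as did 16.7% of all merged regions. The lost regions were chr12:12855329-12855713, covered over 326 and 288 bp with GFP, and chr12:12857821-12858315, covered over 468 bp in both GFP libraries. Both stayed lost with lists of equal length, where a lost region can drop out only through its GFP replicate 1 peak. The gained region, chr12:12889585-12889965, was covered over 274 and 381 bp with SMARCB1, and with lists of equal length it was no longer gained. A region between the lost ones, chr12:12856106-12857577, had a peak in every library and covered 878 and 1472 bp with GFP against 448 and 213 bp with SMARCB1. The Jaccard index over the window ran from 0.692 to 0.800 over all 6 pairs of libraries. It was 0.752 within the GFP pair, inside the range of the pairs between groups, 0.692 to 0.754.

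CDKN1C, a Cip/Kip inhibitor that also restrains growth in the embryo, lay in a window with the opposite direction to that of CDKN1A. Peaks there were not assigned to single genes. Peaks covered 6241 and 4309 bp of its 90 kb window with GFP and 17620 and 12290 bp with SMARCB1. Both SMARCB1 values lay above both GFP values, by at least 6049 bp. The means were 5275 ± 1366 bp and 14955 ± 3769 bp (SD, n = 2), a ratio of 2.84 and a difference of 9680 bp (exact two-sided permutation test, p = 0.333). Peak numbers were 11 and 7 with GFP and 26 and 18 with SMARCB1.

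This direction was the common one. Of 90 kb tiles with a peak, 50.1% were higher in both SMARCB1 libraries, and 32.3% were also at least 2 times the GFP mean, as CDKN1C was. With lists of equal length the CDKN1C difference was 5600 bp, while 37.8% of tiles were higher in both SMARCB1 libraries and 24.1% at least 2 times the GFP mean. The CDKN1C window thus stood among a large share of the genome.

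**Figure D4:**
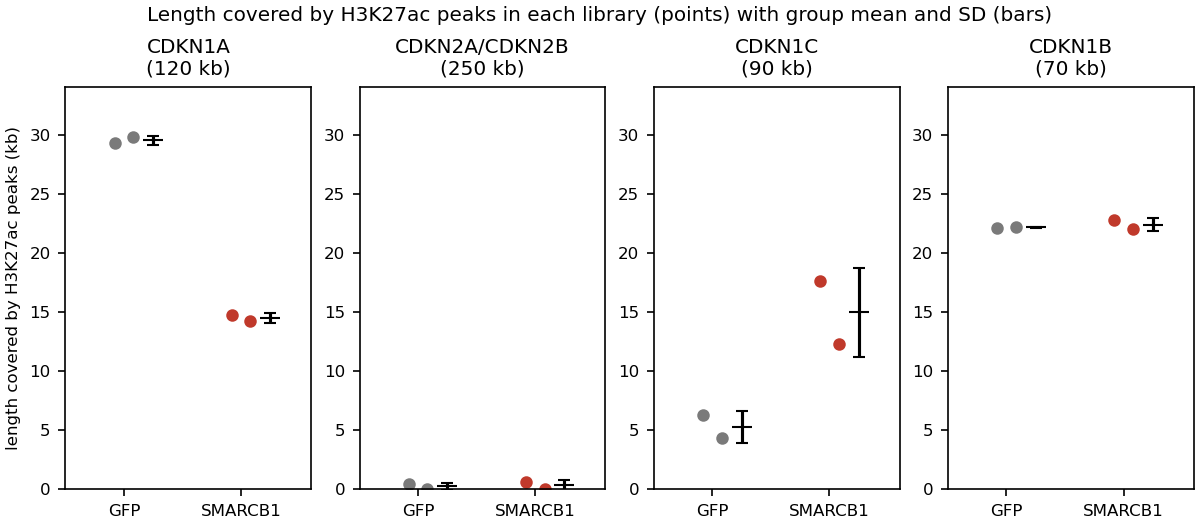
Length covered by H3K27ac peaks in kb (vertical axis) in each window, with 1 point per library and the mean and SD of each group (n = 2) beside them. The GFP points stand above the SMARCB1 points at CDKN1A (29248 and 29784 against 14755 and 14188 bp) and below them at CDKN1C (6241 and 4309 against 17620 and 12290 bp), and the groups overlap at CDKN1B and at CDKN2A/CDKN2B.

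The strongest acetylation of the CDKN1C window was present in both groups. In the region chr11:2911103-2914769 the main peak was 1920 and 2385 bp wide with GFP against 2557 and 2523 bp wide with SMARCB1, and its summits fell within 10 bp of each other. Its fold was 22.1 and 13.1 with GFP and 12.1 and 11.6 with SMARCB1, on 67, 68, 84 and 61 fragments. By p it was in the top 3.25% and 4.18% of the GFP lists and the top 2.84% and 2.82% of the SMARCB1 lists. Both GFP tables and that of SMARCB1 replicate 2 joined every peak they had there, so by those 3 tables it is distal, while that of SMARCB1 replicate 1 leaves it undetermined.

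Peaks outside the stitched regions, taken as near a start site, stood in 3 places. At chr11:2892274-2892509 a peak of 236 bp was found in SMARCB1 replicate 2 alone. At chr11:2905657-2906014 there was a peak of 200 bp in GFP replicate 1 and of 334 bp in SMARCB1 replicate 2, and at chr11:2907440-2907739 a peak of 300 bp in SMARCB1 replicate 1. These peaks were short and none was in both libraries of a group. The third place, from 2917063 to 2925111, held 4 regions with a peak in every library. There the peaks of SMARCB1 replicate 1 lie inside its long stitched region, which joined 19 of 25 peaks, so which of them were left out is not known. On GRCh38.p14 the genes stand in the order KCNQ1DN, CDKN1C, SLC67A1-AS, SLC67A1, PHLDA2, and the tables do not say which start site belongs to which.

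The 4 regions at that last place were covered over more length with SMARCB1. At chr11:2917063-2920077 peaks covered 244 and 218 bp with GFP against 2906 and 2486 bp with SMARCB1. At chr11:2920164-2921725 they covered 444 and 334 bp with GFP against 1468 and 1178 bp with SMARCB1. Here acetylation stood in all libraries and was longer with SMARCB1. The other regions of this place were closer, with both SMARCB1 values again the higher. How many regions of the genome with a peak in every library separate the groups in this way was not computed. The region chr11:2921919-2923356 was covered over 1060, 750, 1252 and 1376 bp and chr11:2923493-2925111 over 604, 404, 1426 and 911 bp, GFP libraries first. Right of them the GFP libraries had no peak, while SMARCB1 peaks covered 5588 bp in replicate 1 and 2095 bp in replicate 2.

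Of the 24 merged regions in the CDKN1C window 5 were gained (20.8%), close to the 17.5% of all merged regions, and 0 were lost. Another 12 were seen in a single SMARCB1 library, and no region was seen with GFP only. Shares of all merged regions with these patterns were not computed, so neither count is read as particular to the window. With lists of equal length 1 of 13 regions was gained, against 11.5% of all merged regions. That region, chr11:2934057-2934900, was covered over 844 bp with a fold of 6.24 in SMARCB1 replicate 1 and over 414 bp with a fold of 4.29 in SMARCB1 replicate 2. The other gained peaks had folds from 2.84 to 4.30. SMARCB1 replicate 1 carried most of the added length: its table joined 19 peaks over 31410 bp, a stitched region marked as a super-enhancer, where that of SMARCB1 replicate 2 had 1 of 7539 bp and 1 of 7790 bp, both unmarked. The GFP tables had 1 stitched region each, of 4532 and 3143 bp and unmarked. The mark was on 5.55% and 5.02% of all stitched regions with SMARCB1 against 3.37% and 3.35% with GFP. As it rests on a signal shared by regions with the same ID, it is not read as a change at CDKN1C. The Jaccard index was 0.553 within GFP and 0.562 within SMARCB1, and between 0.242 and 0.371 across groups. Here too the values across groups are bounded by the difference in covered length, and are not a separate result.

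CDKN2A and CDKN2B, which lie side by side with the noncoding CDKN2B-AS1, had almost no H3K27ac in either group. Of the 250 kb window peaks covered 454 bp in GFP replicate 1, 622 bp in SMARCB1 replicate 1 and 0 bp in both replicates 2. The groups overlapped, with a difference of 84 bp (exact two-sided permutation test, p = 1). The median 250 kb tile with a peak was covered over 4660.5 bp with GFP against 7873.5 bp with SMARCB1, far more than this window. Of such tiles 53.9% were higher in both SMARCB1 libraries and 18.1% lower in both, and the CDKN2A/CDKN2B window was neither.

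The few peaks there lay in 2 neighbouring regions. In chr9:21994099-21994520 the peak was 253 bp wide with a fold of 5.20 on 15 fragments in GFP replicate 1, and 422 bp wide with a fold of 3.39 on 19 fragments in SMARCB1 replicate 1. In chr9:21994575-21994883 it was 201 bp wide with a fold of 4.87 in GFP replicate 1 and 200 bp wide with a fold of 2.88 in SMARCB1 replicate 1. All 4 peaks were left out of the stitched tables as near a start site, so none of what was called there was distal. By p the stronger of them was at the top 35.8% of the GFP replicate 1 list and the top 62.9% of the SMARCB1 replicate 1 list. Both regions were present in both replicates 1 and in neither replicate 2, a pattern of 2.28% of all merged regions. At the strict threshold and with lists of equal length, the SMARCB1 replicate 1 peaks were no longer kept and the difference was -227 bp. No peak was called elsewhere in the 250 kb, which includes the stretch of CDKN2B, in any library. A window without peaks shows that acetylation did not reach the caller's threshold at this depth, not that it was absent.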

How the data were processed

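H3K27ac chromatin immunoprecipitation sequencing was analysed in 4 libraries, 2 with induced GFP and 2 with induced SMARCB1, of 20 samples in 10 groups. The members, windows and lists were chosen with earlier results of these data known, and the shared spans, bins and the bounds of 0.5 and 2 times the GFP mean were set with values in view. Reads were aligned with BWA 0.7.12-r1039 to hg19, per the submitters' processing notes, which also name SAMtools and bedtools. Peaks were called with MACS2 on each library, per the peak names in the deposited lists. The caller's version, control and filter are not given in the sources used here.

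The fold enrichment of a peak is a deposited ratio of its summit over background, computed by the authors, and each peak's -log10 p and its -log10 q are likewise the authors' own. The ROSE tables of stitched regions give the number of peaks joined and a super-enhancer mark, per the file headers. Each table was assigned to the library whose list held 100% of its region starts and stops. Their 8 signal columns were set aside, since any regions sharing an ID share a signal, on which the marks also rest. Distinct IDs numbered 107 and 92 with GFP, for 26982 and 19377 regions. With SMARCB1 they numbered 137 and 138, for 36063 and 30305 regions.

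Covered length was summed per library within a window and compared over libraries by exact permutation, two-sided. The same sums were made over tiles of the genome of equal length that held a peak in any library. Merging, calls and tile sums were tested on simulated data. Depth is not in the files, so the fragments and background at each summit were solved from fold and -log10 p to within 0.002, for 100% of 400 test peaks in each list and all peaks of the windows. The counts of SMARCB1 replicate 1 needed a scale of 0.855, and are printed before it, while the background of that library is printed after it. Precision is limited by having 2 libraries per group, and fragment counts are not interval estimates.

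Named regions were those with the highest fold or width in a window, those with peaks outside every stitched region, taken as near a start site, and those whose gain or loss kept its call with lists of equal length. The few other regions with values were chosen after their values were seen. Genes elsewhere in the pathway were not described, as no hg19 gene positions were used here. RefSeq promoter sequences, on GRCh38.p14, matched 4 of the 5 genes. Each alternative changed 1 choice: lists cut at a -log10 q of 5, lists of equal length, shared regions only by 50% reciprocal overlap, peaks joined within 1 kb, the replicate number as a block, or a library left out. The work used Python 3.11.15 with pandas 2.3.3, numpy 2.4.6, matplotlib 3.10.9 and scipy 1.17.1.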

Additional observations from a re-analysis of the deposited data

How the results depend on the processing

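The covered length kept its direction at CDKN1A and CDKN1C under every alternative run: -9557.5 and 6486 bp at the stricter threshold of 5 on -log10 q, -14419 and 5600 bp with equal numbers of peaks, and -15328 to -14761 and 7015 to 12345 bp with each library left out. The small differences at the other genes changed sign. At CDKN2A/CDKN2B it was -227 bp at the strict threshold and with equal numbers of peaks, and -227 to 395 bp with a library left out, being -143 bp without GFP replicate 2 and -227 bp without SMARCB1 replicate 1. At CDKN1B it was -675 bp with equal numbers and -183 to 627 bp with a library left out, being -183 bp without SMARCB1 replicate 1.

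Counts of regions moved more. The 17 regions lost at CDKN1A became 4 at the strict threshold, 9 with peaks within 1 kb joined, and 18 to 35 with a library left out, being 30 without GFP replicate 1 and 35 without GFP replicate 2, where a single GFP library sets the call. The 5 gained at CDKN1C became 3 at the strict threshold, 1 with equal numbers, 2 with joined peaks and 5 to 18 with a library left out, being 11 without SMARCB1 replicate 1 and 18 without SMARCB1 replicate 2, and 2 were lost there under reciprocal overlap. At CDKN1B gained regions became 0 with equal numbers, 2 under reciprocal overlap and 1 to 2 with a library left out, while lost regions became 0 with joined peaks and 2 to 4 with a library left out. The cause was not tested, except that leaving out a library asks for fewer libraries and joining leaves fewer regions. Shares of all merged regions were computed only for the main setting and for equal numbers. The other counts therefore show only how far the calls moved.

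The labels do not say that a replicate number marks a shared culture or day, so the pairing below is only of numbers. With the replicate number as a block, the differences were -15044.5 bp at CDKN1A and 9680 bp at CDKN1C (exact sign-flip test over 2 pairs, p = 0.5, the smallest possible), and 222 bp at CDKN1B and 84 bp at CDKN2A/CDKN2B (exact sign-flip test, p = 1). Within pairs 1 and 2 they were -14493 and -15596 bp at CDKN1A, 11379 and 7981 bp at CDKN1C, 668 and -224 bp at CDKN1B, and 168 and 0 bp at CDKN2A/CDKN2B. Deviations of same-numbered libraries from their group means correlated over tiles of the genome (Pearson's r between 0.495 and 0.625 by tile length), a description without a test, as tiles share their libraries.

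GFP replicate 1 had the lowest background, 1.82 fragments, and depth was not balanced between the groups.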
